A study of Mus musculus with 6 samples.

Results

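The genes described here encode 10 transcription factors of the MYC, MAX and MLX network (Myc, Mycn, Mycl, Max, Mxd1, Mxd4, Mxi1, Mnt, Mlx and Mlxipl), out of 12393 genes that a probe set with exactly 1 gene symbol represents on the array. They form a family named by function, taken up with earlier results of these data known, and 20 of the 22626 probe sets carry 1 of these symbols alone. Liver RNA was measured on 6 one-colour Affymetrix arrays: 3 livers of SIRT7 knockout mice, labelled knock-out for the Sirt7 allele, and 3 livers of wild-type mice. SIRT7 is a nuclear NAD-dependent deacylase, and the study's title links it to MYC activity, so the comparison asks how the transcripts of MYC and its relatives differ in liver without SIRT7. All livers had the same treatment per the labels. Whether the allele is deleted in the whole body or in liver alone, and the strain, age, sex, diet and hour of dissection, are not stated in the sources used here.

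All members of the network are basic helix-loop-helix leucine zipper proteins that bind DNA as pairs at the E-box. MYC, MYCN and MYCL need MAX as their partner and activate genes of growth and metabolism, while MXD1, MXD4, MXI1 and MNT compete for MAX and bring SIN3 corepressors to the same sites. MLX is the partner of MLXIPL, known as ChREBP, which in hepatocytes switches on glycolytic and lipogenic genes when glucose is high. MLX also pairs with MNT and some MXD proteins, which joins both arms.

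Because the network acts on the E-box, its own promoters were read for that site. RefSeq promoter windows (assembly GRCm38.p6) run from 250 bases before to 50 after a start listed for a gene, which need not be its outermost start. They were matched for 9 of the 10 genes, all but Myc, with 12 windows in all. The E-box CACGTG, which reads the same on both strands, was in a window of 5 of these 9 genes (55.6%): Max, Mxd4, Mnt, Mlx and Mlxipl. Of the tested genes with a window, 12.1% held it, and 8.09% of all genes with one. The windows of Mycn, Mycl, Mxd1 and Mxi1 did not hold these letters. The sequences around the 5 sites are shown because they place the network's shared binding letters next to its own genes. Each runs 5′ to 3′ on the gene's strand. It ends at the start listed for the window where that is closer than 40 bases, except for Max, whose site spans that start. Capitals mark the E-box.
Max, chr12:76962246-76962291, minus strand: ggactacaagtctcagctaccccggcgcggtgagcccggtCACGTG
Mxd4, chr5:34187884-34187960, minus strand: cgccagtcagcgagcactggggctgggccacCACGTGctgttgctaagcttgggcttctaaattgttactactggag
Mnt, chr11:74830761-74830846, plus strand: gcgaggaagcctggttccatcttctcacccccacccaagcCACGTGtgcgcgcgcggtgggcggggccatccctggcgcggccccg
Mlx, chr11:101087210-101087289, plus strand: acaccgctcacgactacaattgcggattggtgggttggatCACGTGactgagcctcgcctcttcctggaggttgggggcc
Mlxipl, chr5:135089752-135089837, plus strand: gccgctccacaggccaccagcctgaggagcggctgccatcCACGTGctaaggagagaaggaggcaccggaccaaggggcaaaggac
The first base of the site lay 3 bases before the start listed for the window of Max, 40 for Mlx, 98 for Mlxipl, 123 for Mnt and 219 for Mxd4. For Max, Mlx and Mnt that start is inside the gene's bounds (chr12:76937269-76962323, chr11:101086707-101092207 and chr11:74830806-74845725). The sites of Max and Mlx lie inside these bounds too. Mlxipl has 2 RefSeq starts, and the site is at the upstream one; in mice, an upstream first exon of Mlxipl gives the shorter isoform, ChREBP-beta. A match is a run of letters and was not tested for binding.

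Expression values were deposited in log2 units, where a difference of 1 is a doubling. They carry no detection call, and a gene was tested only if its mean over the 6 livers was at least 4, which left 8343 genes and 9 of the 10 members; Mxd1 lay below. Sirt7 itself averaged 2.78 ± 0.37 in knockout livers and 9.74 ± 0.15 in wild-type livers (SD, n = 3 each). The hepatocyte genes Alb, Ttr and Apoa1 were above 12 in all 6 livers, as the tissue label says. Array medians were between 5.69 and 5.77. Wild-type replicate 3 stood apart from the other wild-type livers in cell cycle genes, given below, and the fits for the members and the gene lists were also run without it. That the 3 livers of a group came from separate animals is not stated, so the p-values describe the scatter of these samples alone, part of which may be technical.

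None of the 9 tested members passed the test. Knockout and wild type were compared across all 8343 genes with limma, and a call needs a Benjamini-Hochberg adjusted p under 0.05: this called 2 genes in all (0.024%), Sirt7 and the chemokine gene Cxcl14, and 0 members. Before adjustment, 0 members had a p under 0.05, against 6.46% of all tested genes. The knockout and wild-type livers overlapped in every tested member; 9.74% of all tested genes had groups that did not overlap. Of the 9 members 4 were higher (45.4% of all tested genes) and 5 lower (54.6%) in the mean, with a median difference of -0.001, beside a median of -0.032 over all tested genes.

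**Figure D1:**
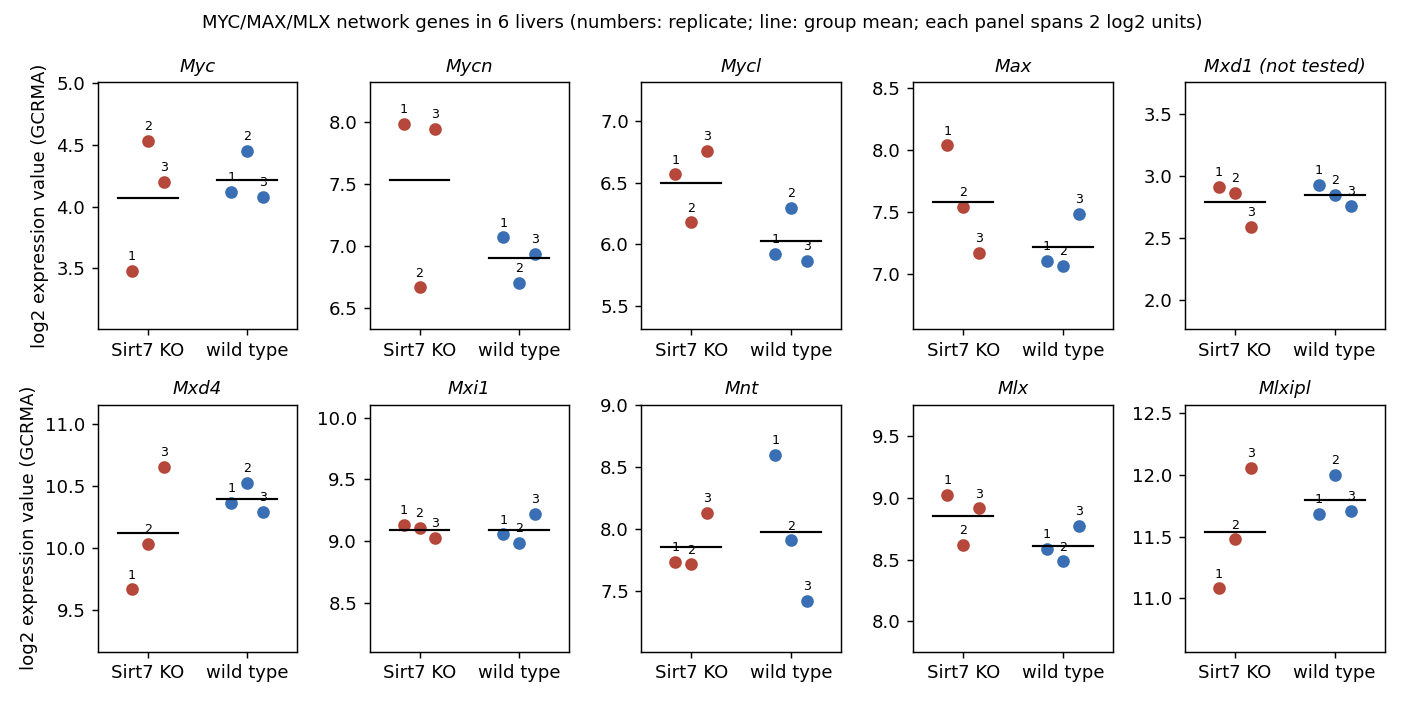
Log2 expression value (vertical axis, GCRMA) of each of the 10 network genes in the 3 Sirt7 knockout livers (red, left) and the 3 wild-type livers (blue, right); numbers give the replicate, lines the group mean, and each panel spans 2 log2 units. The groups overlap in every panel, and the knockout points of Mycn, Myc, Mxd4, Mlxipl and Max spread further than the wild-type points.

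Among the MYC activators, Myc had log2 values of 3.48, 4.53 and 4.20 in knockout livers and 4.12, 4.45 and 4.08 in wild-type livers. The lowest and the highest value were both from knockout livers, and the gene lay close to the filter. The difference of -0.15 (knockout minus wild type, SE 0.28) had a 95% interval of -0.79 to 0.50, which spans 0.579-fold to 1.41-fold (limma adjusted p = 0.92). Its direction turned on 1 liver: it was 0.15 without knockout replicate 1 and -0.38 without knockout replicate 2.

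Mycn, the paralog best known from the developing nervous system, had log2 values of 7.99, 6.66 and 7.95 in knockout livers and 7.07, 6.70 and 6.94 in wild-type livers. Knockout replicates 1 and 3 were above every wild-type liver, while knockout replicate 2 was the lowest of the 6. The difference of 0.63 (SE 0.35) was the largest in the network, with a 95% interval of -0.16 to 1.42 (limma adjusted p = 0.794). Without knockout replicate 2 it was 1.06, and the groups then did not overlap, whereas it was 0.40 without knockout replicate 1 and 0.0072 with limma's array weights, which gave knockout replicate 2 the most weight. The other 2 probe sets of Mycn were below 4 on average and differed by -0.024 and 0.047, so the difference rests on 1 probe set of 3, and the mean of the probe sets gave 0.22.

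Mycl, the remaining MYC paralog, had log2 values of 6.57, 6.18 and 6.76 in knockout livers and 5.92, 6.29 and 5.87 in wild-type livers. Knockout replicate 2 fell below wild-type replicate 2, and all other knockout values were above all wild-type values. The difference was 0.47 (SE 0.22, 1.39-fold) with a 95% interval of -0.04 to 0.98; its unadjusted p of 0.065 was the smallest in the network (limma adjusted p = 0.773). Its other probe sets, both below 4, differed by -0.079 and 0.34.

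Max, the common partner, had log2 values of 8.04, 7.54 and 7.17 in knockout livers and 7.10, 7.06 and 7.48 in wild-type livers. Wild-type replicate 3 lay above knockout replicate 3 and close to knockout replicate 2. The difference of 0.37 (SE 0.26) had a 95% interval from -0.22 to 0.95 (limma adjusted p = 0.801). It was 0.57 without knockout replicate 3 or 0.50 without wild-type replicate 3, and 0.14 without knockout replicate 1, so its size turned on single livers while its direction did not.

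Of the repressors that compete for MAX, Mxi1 had the smallest span over the livers among the 9 tested members. Its log2 values were 9.13, 9.11 and 9.02 in knockout livers and 9.05, 8.99 and 9.22 in wild-type livers. All 6 livers lay within 0.236 log2 units of each other. The difference of -0.001 (SE 0.18) had a 95% interval of -0.40 to 0.40, which leaves room for a change between 0.757-fold and 1.32-fold (limma adjusted p = 0.999).

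Mnt, a broadly expressed MAX and MLX partner, had log2 values of 7.73, 7.71 and 8.13 in knockout livers and 8.60, 7.91 and 7.42 in wild-type livers. Here the wild-type livers were the less alike, spanning 1.18 log2 units against 0.417 in knockout livers, and they held both the highest and the lowest value. The difference of -0.12 (SE 0.30) had a 95% interval from -0.80 to 0.57 (limma adjusted p = 0.953) and was 0.20 without wild-type replicate 1.

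Mxd1, which is known for its rise in differentiating blood cells, was not tested. Its log2 values were 2.91, 2.86 and 2.59 in knockout livers and 2.93, 2.85 and 2.76 in wild-type livers, all in the low range where the background model of the array gathers weak transcripts. The groups overlapped.

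Mxd4, the repressor measured by 4 probe sets, depended on the probe set. The brightest gave log2 values of 9.66, 10.03 and 10.66 in knockout livers and 10.37, 10.53 and 10.29 in wild-type livers. Knockout replicates 1 and 2 were below, and knockout replicate 3 above, all wild-type livers. The difference was -0.28 (SE 0.26) with a 95% interval of -0.88 to 0.32 (limma adjusted p = 0.844). It was -0.55 without knockout replicate 3 and -0.052 without knockout replicate 1. Averaging the gene's probe sets gave -0.020. A second probe set had values of 7.35, 7.44 and 7.98 in knockout livers and 7.43, 7.74 and 7.29 in wild-type livers, and the third had 6.14, 6.12 and 6.03 in knockout livers and 6.10, 5.68 and 6.09 in wild-type livers. These differed by 0.10 and 0.14, the opposite sign to the brightest one.

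In the MLX arm, Mlx had log2 values of 9.02, 8.62 and 8.92 in knockout livers and 8.58, 8.49 and 8.77 in wild-type livers. Knockout replicates 1 and 3 were the highest, and knockout replicate 2 lay within the wild-type range. The difference of 0.24 (SE 0.20) had a 95% interval from -0.21 to 0.68 (limma adjusted p = 0.829). Its second probe set differed by 0.42, with values of 6.48, 5.43 and 5.70 in knockout livers and 5.42, 5.50 and 5.43 in wild-type livers, so that difference came mostly from knockout replicate 1.

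Mlxipl, the glucose-responsive factor, had log2 values of 11.08, 11.48 and 12.06 in knockout livers and 11.68, 12.00 and 11.71 in wild-type livers. Knockout replicates 1 and 2 were the lowest and knockout replicate 3 was the highest of the 6. The difference of -0.26 (SE 0.27) had a 95% interval of -0.86 to 0.35, spanning 0.551-fold to 1.27-fold (limma adjusted p = 0.855). Without knockout replicate 3 it was -0.52 and the groups did not overlap, and without knockout replicate 1 it was -0.029. Mlxipl has 1 probe set, and which of its isoforms that probe set reads is not stated in the sources used here.

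**Figure D2:**
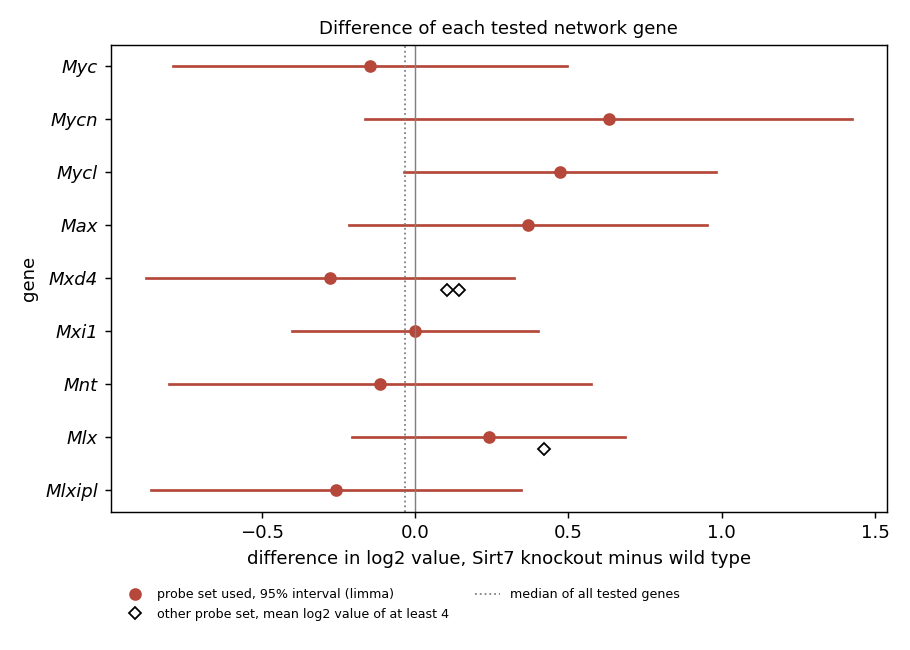
Difference in log2 value, Sirt7 knockout minus wild type (horizontal axis), of the 9 tested network genes: red points with 95% intervals from limma, open diamonds for other probe sets with a mean log2 value of at least 4, dotted line at the median of all tested genes (-0.032). Every interval includes 0, and both further Mxd4 probe sets lie on the other side of 0 from the one used.

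The precision of these results is set by 3 livers per group. The half-widths of the 95% intervals ran from 0.40 for Mxi1 to 0.79 for Mycn, so a log2 difference of 1 in either direction lay outside the interval of every tested member except Mycn, whose interval reached 1.42. The SD was larger among knockout than among wild-type livers in 7 of the 9 tested members, all but Mxi1 and Mnt, and in 59.6% of all tested genes. Knockout replicate 1 held the highest value of Mycn, Max and Mlx and the lowest of Myc, Mxd4 and Mlxipl. Across all tested genes, that liver was the highest in 20.6% and the lowest in 29.1%.

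Mlxipl and Mxd4 followed each other over the 6 livers. With each gene scaled to mean 0 and SD 1, Mxd4 differed from Mlxipl by a root mean square of 0.132, the 14th smallest among 8342 tested genes, where the median gene differed by 1.17. This is a description over 6 livers of 2 groups, with no test. It held for the brightest Mxd4 probe set; its dimmer probe sets with a mean of at least 4 gave 0.65 and 1.64. Among the other members Myc gave 0.762, Mnt 1.08, and Max (1.78), Mxi1 (1.60) and Mlx (1.55) were far from it.

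The 5 tested genes closest to Mlxipl were Slc12a7 (root mean square difference 0.0677), a potassium-chloride cotransporter gene, Trim28 (0.0689), which encodes the KAP1 corepressor, Pcid2 (0.0816), Cpn2 (0.0934), a subunit of the plasma enzyme carboxypeptidase N made in liver, and Tmem234 (0.104). These values are for the brightest probe sets. A second probe set differed between the groups by 0.29 for Tmem234 and 0.10 for Pcid2, where the ones used differed by -0.29 and -0.21. That of Slc12a7 had the same sign as the one used (-0.42 and -0.44). Trim28 had log2 values of 7.94, 8.60 and 9.49 in knockout livers and 9.02, 9.43 and 8.98 in wild-type livers, the same order of knockout livers as Mlxipl. The deviation of hepatocyte markers (11 tested of 12, median over genes from their mean over 6 livers) was -0.253, -0.258 and 0.185 in knockout replicates 1 to 3 and -0.012, 0.134 and 0.168 in wild-type replicates 1 to 3. They were thus low in the knockout livers where Mlxipl was low, and their part in the Mlxipl values was not tested. In whole-tissue RNA, fewer cells of a type and less RNA per cell cannot be told apart.

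**Figure D3:**
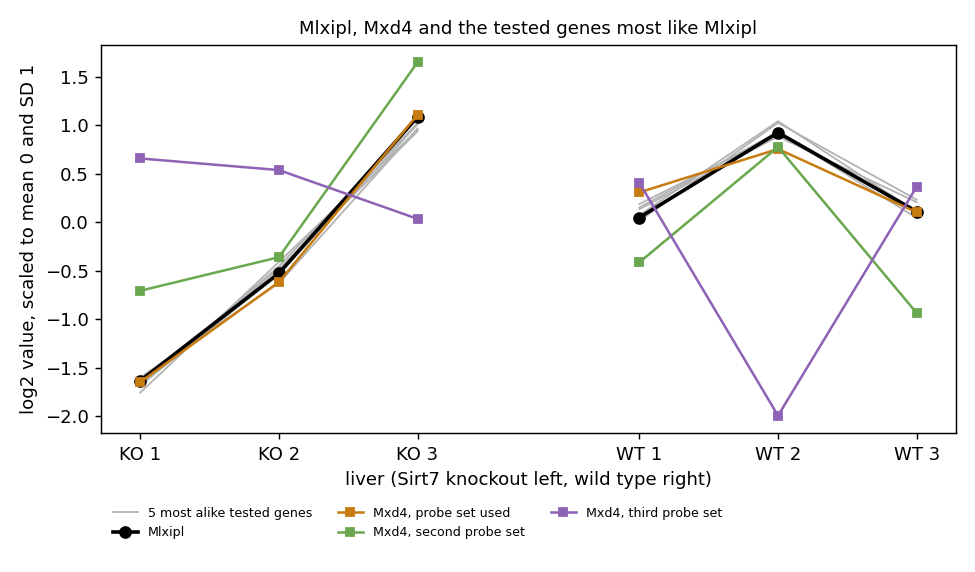
Log2 value scaled to mean 0 and SD 1 over 6 livers (vertical axis) for Mlxipl (black), 3 probe sets of Mxd4 (coloured) and the 5 tested genes most like Mlxipl (grey), in Sirt7 knockout livers 1 to 3 (left) and wild-type livers 1 to 3 (right); lines only join the points of a gene. The Mxd4 probe set used lies on Mlxipl, with a root mean square difference of 0.132, and the third probe set does not, at 1.64.

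Genes that MLXIPL is known to activate included Rgs16, the gene with the largest difference in any list here. Of 34 listed, 27 were tested; limma called 0 in either direction, 17 were higher and 10 lower in the mean, and the median difference was 0.12 beside -0.032 over all tested genes. Before adjustment, at p under 0.05, 4 were higher (3.04% of all tested genes) and 0 lower (3.42%). These 4 were Rgs16, Klf10, Fasn and Txnip. The lipogenic and glycolytic targets Scd1 (0.02, 95% interval -0.37 to 0.41), Pklr (-0.10, -0.67 to 0.47), Thrsp (-0.04, -0.81 to 0.72), Acly (0.15, -0.33 to 0.64) and Khk (0.15, -0.38 to 0.68) all had intervals that include 0. Other targets lay further from 0 in either direction, such as Pnpla3 (0.64, -0.31 to 1.58) and Tm6sf2 (-0.45, -1.185 to 0.28), with intervals that also include 0.

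Rgs16, a regulator of G protein signalling that responds to glucose in hepatocytes, had log2 values of 10.54, 10.26 and 8.80 in knockout livers and 4.87, 7.68 and 4.82 in wild-type livers. All knockout livers were above all wild-type livers on each of its 3 probe sets. The difference was 4.08 (SE 0.76, limma adjusted p = 0.398), and it passed the threshold only without wild-type replicate 2 (5.02, adjusted p = 0.0072) among the fits that left out 1 liver. Within the knockout group Rgs16 was highest in replicate 1, where Mlxipl was lowest. Within the wild-type group it was highest in replicate 2, where Mlxipl was highest too.

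Txnip, the thioredoxin-interacting protein gene and a textbook ChREBP target, had log2 values of 11.13, 10.98 and 9.66 in knockout livers and 9.42, 9.30 and 10.02 in wild-type livers. Its order among the knockout livers was the reverse of that of Mlxipl, and wild-type replicate 3 was above knockout replicate 3. The difference was 1.01 (SE 0.39, limma adjusted p = 0.769), with 0.89 on its second probe set. The promoter windows were searched on both strands for a paired site of the carbohydrate response kind. The pair was 2 copies of CACGNG facing the same way, with 5 bases between them. Pairs whose copies face opposite ways were not searched. Txnip was the only tested gene of the MLXIPL list whose window held the searched pair, and 0.117% of the tested genes with a window held one. The Txnip site is shown, with its pair in capitals, as a form of site that MLXIPL with MLX is known to bind.
Txnip, chr3:96557832-96557928, plus strand: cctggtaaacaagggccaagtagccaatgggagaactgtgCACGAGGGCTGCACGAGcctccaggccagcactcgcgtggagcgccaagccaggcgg
The pair begins 85 bases before the start listed for the Txnip window. Such a pair can include the E-box CACGTG as a special case, which this one does not. The E-box alone was in the windows of 2 of the 20 tested MLXIPL target genes that had one, Arrdc4 and Khk.

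Klf10, a zinc finger repressor gene of the glucose response, had log2 values of 10.99, 10.75 and 10.55 in knockout livers and 10.34, 9.52 and 9.51 in wild-type livers, with no overlap (0.98, SE 0.27, limma adjusted p = 0.705). Fasn, the fatty acid synthase gene, had log2 values of 11.43 ± 0.35 in knockout livers and 10.83 ± 0.15 in wild-type livers (SD, n = 3 each), and its groups did not overlap either (limma difference 0.60, SE 0.22, adjusted p = 0.76). Fasn (chr11:120805958-120825166) lies on the chromosome of Sirt7 (chr11:120618371-120625014) and close to it, and what belongs to the locus and what to the loss of SIRT7 cannot be told apart for it. In all, the groups did not overlap in 4 higher genes of the 27 (4.27% of all tested genes) and 1 lower gene (5.48%). Beside Rgs16, Klf10 and Fasn the higher ones included Bhlhe40 (0.41), and the lower one was Slc2a2 (-0.34).

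The state in which MLXIPL works was read from genes of feeding and glucose handling. Of 15 listed, 11 were tested, 0 were called by limma in either direction, and the median difference was 0.022. At an unadjusted p under 0.05, 1 was higher, Angptl4 (3.04% of all tested genes), and 0 were lower (3.42%). Srebf1, the gene of the insulin-responsive lipogenic factor SREBP1, had log2 values of 9.97, 10.15 and 10.93 in knockout livers and 10.95, 10.95 and 10.92 in wild-type livers (-0.59, SE 0.26, adjusted p = 0.773). Knockout replicates 1 and 2 were thus low in Srebf1, as in Mlxipl. Angptl4, a lipase inhibitor gene induced by fasting, differed by 1.06 (SE 0.40, limma adjusted p = 0.763), and by 0.58 without wild-type replicate 1. Its groups did not overlap, as in 4.27% of all tested genes that were higher. Among 13 tested circadian genes 0 were called, with 2 higher (3.04% of all tested genes) and 1 lower (3.42%) at an unadjusted p under 0.05; the clock repressor gene Nr1d1 differed by 0.86 (SE 0.23, adjusted p = 0.678) and Npas2, a partner of BMAL1, by -1.27 (SE 0.40, adjusted p = 0.746). Neither the hour of dissection nor feeding is given in the sources used here, and the part of either in the MLXIPL target values was not tested.

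Regulators of MYC protein turnover were without a call. Of 21 listed genes 17 were tested, limma called 0 in either direction, 12 were lower (54.6% of all tested genes were) and 5 higher, and the median difference was -0.20, or -0.092 without wild-type replicate 3. Before adjustment, at p under 0.05, 3 were lower (3.42% of all tested genes) and 0 higher, and the groups did not overlap in the same 3 (5.48% of all tested genes).

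Usp36, a nucleolar deubiquitinase gene whose protein stabilizes MYC, had log2 values of 5.39, 5.73 and 5.75 in knockout livers and 6.90, 6.81 and 7.38 in wild-type livers. All knockout livers were lower, by 1.41 in the mean (a difference of -1.41, SE 0.22, limma adjusted p = 0.213). A second probe set with a mean below 4 differed by 0.17, and the gene (chr11:118259651-118290260) is on the chromosome of Sirt7. As for Fasn, what belongs to the locus and what to the loss of SIRT7 cannot be told apart for Usp36. Of the network members, Mnt (chr11:74830806-74845725) and Mlx (chr11:101086707-101092207) are on that chromosome too, further from Sirt7, and the same limit holds for them.

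Btrc, the beta-TrCP ubiquitin ligase subunit gene, had log2 values of 6.40, 6.61 and 6.36 in knockout livers and 7.70, 7.40 and 7.11 in wild-type livers (-0.95, SE 0.21, limma adjusted p = 0.544). Fbxw7, the gene of the subunit that marks phosphorylated MYC for degradation, had 8.41, 8.44 and 8.33 in knockout livers and 8.87, 8.77 and 8.75 in wild-type livers (-0.40, SE 0.17, adjusted p = 0.772). Both groups of Fbxw7 were tight on this probe set, while another with a mean of 5.78 differed by 0.51 and overlapped. The kinase gene Plk1, which is also a cell cycle gene, differed by 0.84 (SE 0.37, limma adjusted p = 0.773). It differed by 0.54 without wild-type replicate 2 and by 1.24 without wild-type replicate 3.

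The cofactors that MYC and MXD proteins recruit showed nothing past the test. Of 23 listed genes 18 were tested, limma called 0, and 0 had an unadjusted p under 0.05 in either direction; the median difference was -0.048. Sin3a, the scaffold of the MXD corepressor, differed by 0.03 (95% interval -0.37 to 0.44) and Sin3b by 0.16 (-0.25 to 0.58). Kat2a, the GCN5 acetyltransferase gene, differed by 0.28 (SE 0.21, adjusted p = 0.806).

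The remaining network genes were likewise without a call. Of 8 listed, 7 were tested, with 0 called by limma, 0 at an unadjusted p under 0.05 and a median difference of 0.032. Mxd3, the fourth MXD gene, had log2 values of 7.04, 6.91 and 7.13 in knockout livers and 7.01, 7.13 and 6.94 in wild-type livers. Mlxip, which encodes the MLXIPL paralog MondoA, had 6.94, 6.58 and 6.63 in knockout livers and 6.43, 6.73 and 6.93 in wild-type livers. Mga, a MAX-binding gene, was below the filter.

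Genes that MYC is known to activate had a median difference of 0.038 over 37 tested of 42, with 0 called by limma; before adjustment, 6 were higher (3.04% of all tested genes) and 0 lower (3.42%) at p under 0.05. Leading by p were Mcm6 (1.65, SE 0.41), E2f1 (1.37, SE 0.35), Mcm5 (a difference of 1.03, SE 0.35) and Mcm7 (a difference of 0.53, SE 0.18), which act in DNA replication or its control and stand on the cell cycle list too. Cell cycle genes (22 tested of 26) had a median difference of 1.18 with 15 higher at an unadjusted p under 0.05, where 3.04% of all tested genes were, and 0 called. Their median deviation was 0.559, 0.596 and 0.540 in knockout replicates 1 to 3 and -0.942, -0.812 and 0.158 in wild-type replicates 1 to 3. Wild-type replicate 3 was thus nearer to the knockout livers than to its own group. Without it, limma called 8 of the 22 cell cycle genes and 38 of all 8343 tested genes. The part of the cell cycle difference in the MYC target values was not tested. Without wild-type replicate 3, 0 of the 9 network members were called by limma.

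Genes that MYC is known to repress lay on both sides of 0. Of 14 listed 12 were tested, 0 were called by limma, and 1 higher gene (3.04% of all tested genes) and 2 lower genes (3.42%) had an unadjusted p under 0.05. The median difference was 0.18, but 0.052 without wild-type replicate 2 and 0.34 without wild-type replicate 1. Gata4, a transcription factor gene, differed by -0.90 (SE 0.30, adjusted p = 0.746) with no overlap, Gadd45g by -1.28 (SE 0.51, adjusted p = 0.769, and -0.72 without wild-type replicate 2) and Gadd45b by 0.52 (SE 0.21, adjusted p = 0.77), the last pair being paralogous stress-response genes with opposite signs.

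**Figure D4:**
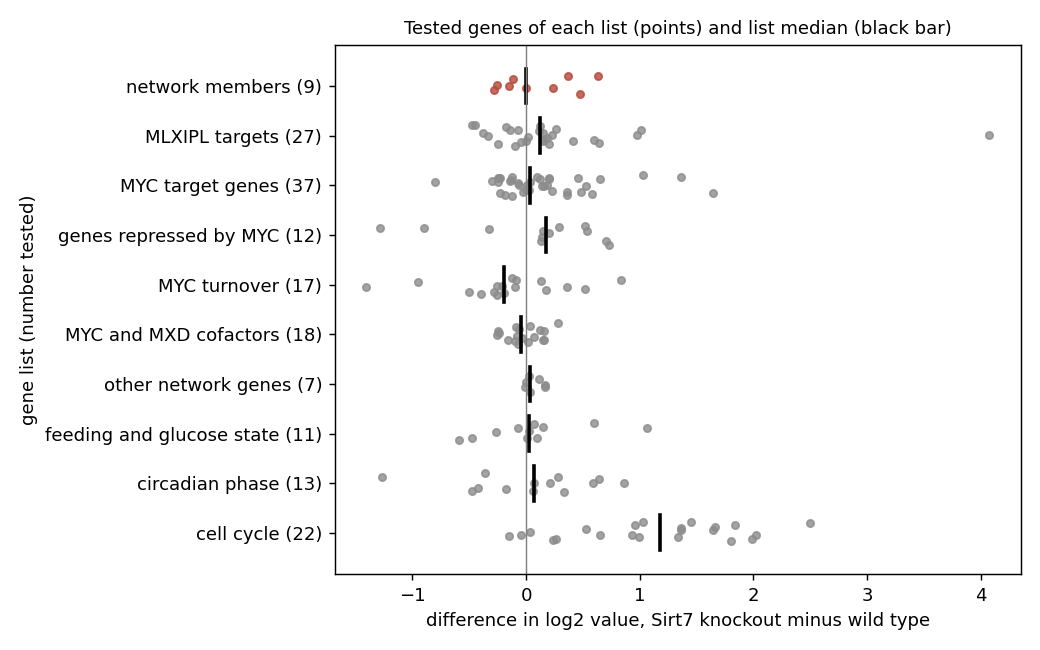
Difference in log2 value, Sirt7 knockout minus wild type (horizontal axis), of each tested gene (points) in the network and in 9 lists of related genes, with the list median as a black bar and the number tested in brackets. The 9 network genes lie between -0.28 and 0.63, the point at 4.08 is Rgs16, and the cell cycle list has a median of 1.18.

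Markers of the other cells a liver sample can hold were read beside these values. Limma called 0 markers of any of the 8 cell types. Before adjustment, 2 of 10 macrophage markers (C1qa and Cd68) had a p under 0.05. So did 1 of 3 bile duct markers (Sox9) and 1 of 2 red cell markers (Slc4a1), and no other marker. Among all tested genes the share was 6.46%. Lymphocyte markers (8 tested of 12) deviated by -0.729, 0.805 and 0.054 in knockout replicates 1 to 3 and by 0.103, -0.168 and -0.302 in wild-type replicates 1 to 3. Knockout replicate 1 was thus the lowest liver in these markers and in Myc, but the highest in Mycn. Knockout replicate 2 was the highest in the markers and in Myc, but the lowest in Mycn. Knockout replicate 3, with a marker deviation of 0.054, was close to replicate 1 in Mycn (7.95 against 7.99). Kupffer cell and macrophage markers (10 tested of 12) deviated by 0.408, 0.026 and -0.065 in knockout livers and by -0.120, -0.060 and -0.083 in wild-type livers, highest in knockout replicate 1, where Max was highest. The largest median differences among the marker lists were those of neutrophil markers (0.69, 3 tested of 8, all higher) and red cell markers (0.59, 2 tested of 7, 1 higher and 1 lower). Neutrophil markers deviated by -0.463, 0.962 and 0.635 in knockout replicates 1 to 3 and by -0.234, -0.737 and 0.032 in wild-type replicates 1 to 3. Red cell markers deviated by -0.179, 0.563 and 0.501 in knockout livers and by -0.288, -0.693 and 0.097 in wild-type livers. Both were thus lower in knockout replicate 1 than in the other knockout livers. Their part in the network values was not tested.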

How the data were processed

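Trizol-extracted, DNase-treated RNA was labelled as biotinylated cRNA and hybridised to 1 array per liver, per the labels' protocols. The authors deposited log2 values, 1 per probe set and array, made, per the submitters' processing notes, with GCRMA 2.20.0 and R 2.11.1; the log2 scale is read from the range of 0.841 to 13.969, and its settings are not stated in the sources used here. GCRMA models background from probe sequence, so weak transcripts gather at low values whose differences understate or blur RNA amounts. Depth has no counterpart on arrays, and the number of livers limits the precision.

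Probe sets were named from the platform annotation: 20380 of 22626 had 1 symbol, 691 several and 1555 none. Each gene took its brightest probe set by mean over the 6 arrays, and was tested at a mean of at least 4. The comparison used limma 3.58.1 in R 4.3.3 (lmFit, eBayes, 2-sided, 3 livers against 3, no block); the fit was tested on simulated data. Errors are SD for groups and moderated standard errors for differences. Members and the 17 lists of 276 entries were chosen with earlier results of these data known. Named genes are Sirt7, the members, up to 4 genes with the smallest p per list, and the 5 nearest to Mlxipl; Scd1, Pklr, Thrsp, Acly, Khk, Sin3a, Alb, Ttr and Apoa1 were chosen outside that rule, as were Mxd3, Mlxip, Mga and Arrdc4, and Cxcl14. Bhlhe40, Slc2a2, Pnpla3 and Tm6sf2 were named outside the rule too. Not every gene the rule names is described. Alternatives covered the filter, normalization, probe sets, array weights, an intensity trend, a replicate block and leaving out each liver. No set test was run.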

Additional observations from a re-analysis of the deposited data

How the results depend on the processing

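No member was called under any of the 14 alternatives; the smallest adjusted p of a member was 0.067 (Max, array weights). Of 115 recomputed member differences 108 kept their sign. The others were those of Myc (0.11 with array weights, 0.15 without knockout replicate 1, down to -0.38 without another liver), of Mxi1 (0.042 with the mean of all probe sets, 0.076 with array weights, 0.031 and 0.066 when knockout or wild-type replicate 3 was left out, down to -0.052) and of Mnt (0.20 without wild-type replicate 1, down to -0.39). The cause was not tested. The number of genes called over the array, 2 in the reported fit, was 1 with the mean of all probe sets, 4 with an intensity trend and 1748 (659 higher, 1089 lower) with array weights, which ran from 0.31 for knockout replicate 3 to 6.12 for knockout replicate 2 and so let 1 liver carry most of the knockout group. With those weights, which called 1748 of all 8343 tested genes, calls also appeared in lists that had 0. They were 5 of 17 MYC turnover genes, 6 of 27 MLXIPL targets, 10 of 37 MYC targets and 7 of 12 genes repressed by MYC (median 0.45). Further calls were 3 of 11 feeding genes, 3 of 13 circadian genes, 17 of 22 cell cycle genes and 1 to 3 markers of each of the 8 cell types. The weights called 0 of the cofactors and of the other network genes. These counts were not tested against the share over all genes. The number of genes called over the array lay between 1 and 38 when 1 liver was left out. Members whose groups did not overlap numbered 0 to 3 then: Mycn, Mycl and Mlx without knockout replicate 2 (15.3% of all tested genes), Max, Mxd4 and Mlxipl without knockout replicate 3 (37%), Mycl without wild-type replicate 2 (13.7%), and Max and Mlx without wild-type replicate 3 (30.2%). With the replicate number as a block, limma called 2 genes and 0 members. The replicate numbers are not stated to mark a shared batch or a pair. Deviations of same-numbered livers correlated at -0.089, -0.092 and -0.194 across genes, and those of differently numbered livers at -0.251 to 0.315. With 3 livers per group, these values cannot decide whether the livers were paired. The MLXIPL target median (0.12) was between -0.059 with array weights and 0.21 with probe sets tested singly. Myc and Mxd1, near or below the filter, cannot show small differences.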
